A study of Rattus norvegicus with 18 samples.

Results

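The levels of 10 genes of fat cells were followed through 18 RNA-seq libraries of rat tibialis anterior, the fast muscle at the front of the shin. They are Adipoq, Lep, Retn and Cfd, which encode secreted proteins, Plin1, Plin4, Cidec and Cidea, which encode proteins of the lipid droplet, and Fabp4 and Thrsp, which act in the handling and synthesis of fatty acids. The genes were chosen by symbol, with earlier results of these data known. Each of the 10 was found once among the 30560 entries of the deposited tables. The libraries fall into 5 groups. The 9-month groups are p16-null DMD (6 libraries), DMD (3 libraries) and wild type (WT, 3 libraries), where DMD rats model Duchenne muscular dystrophy and the p16-null ones are labelled as lacking p16 in addition. WT muscle was also taken at 18 months (3 libraries) and at 3 months (3 libraries). Cdkn2a encodes p16, which halts the cell cycle. The labels do not say how the rats were made, or whether each library came from its own animal, so a p-value here weighs a difference against the scatter of libraries alone, and that scatter may be technical.

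White adipocytes store triglyceride in a single large droplet. The droplet is coated by perilipins, which hold back lipases, and is enlarged by proteins of the CIDE family. Adipocytes also secrete adiponectin, leptin, resistin and adipsin into the blood. In skeletal muscle adipocytes are few, and in dystrophic muscle lost fibres can be replaced by fat and scar that derive from fibro-adipogenic progenitors, the resident mesenchymal cells of the muscle. PPAR gamma and the C/EBP factors drive the adipocyte programme.

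Promoter sequences are shown for the 3 genes whose start site holds a C/EBP motif and for Adipoq, which holds none. RefSeq sequences of build GRCr8 were at hand for 9 of the 10 genes, and none was used for Fabp4. The windows searched ran from 250 bases before to 50 bases after the annotated gene start, 300 bases in all, on both strands. Only the first listed gene start of each member was searched, though 5 were listed for Plin4. The C/EBP motif TTGCNNAA was in the windows of 3 of 9 genes, Lep, Plin1 and Cidec, and in 10.6% of the 33469 windows of all genes. A relaxed form of the direct repeat bound by PPAR and RXR was in 0 of 9 windows and in 0.801% of all windows, and the TATA box TATAAA in 0 of 9 and in 14.2%. The shares of all windows count each listed gene start, so a gene with several starts is counted for each. These are matches of letters in one window and do not show binding. The 250 bases before the gene start follow, 5′ to 3′ in the direction of the gene, with the C/EBP match in capitals. The match begins at -69 from the gene start in Lep (chr4:58626288-58626537, plus strand), where it matched on both strands. It begins at -77 in Plin1 (chr1:143086149-143086398, minus strand) and at -209 in Cidec (chr4:148137116-148137365, minus strand). Adipoq (chr11:91240170-91240419, minus strand) encodes adiponectin, moved with these 3 and has none of the 3 motifs in its window. The windows of Plin4, Cfd, Cidea, Retn and Thrsp held none either and are not shown. Whether the motif bears on the changes was not tested.
Lep: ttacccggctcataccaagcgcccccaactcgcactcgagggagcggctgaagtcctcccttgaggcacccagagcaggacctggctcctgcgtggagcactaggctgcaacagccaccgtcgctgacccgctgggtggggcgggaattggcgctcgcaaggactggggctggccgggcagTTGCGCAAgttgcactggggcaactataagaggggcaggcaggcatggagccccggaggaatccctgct
Plin1: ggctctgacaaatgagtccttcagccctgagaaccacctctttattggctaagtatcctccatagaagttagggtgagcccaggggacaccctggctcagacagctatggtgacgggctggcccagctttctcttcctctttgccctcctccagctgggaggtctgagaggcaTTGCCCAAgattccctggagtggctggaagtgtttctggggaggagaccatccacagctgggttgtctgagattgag
Cidec: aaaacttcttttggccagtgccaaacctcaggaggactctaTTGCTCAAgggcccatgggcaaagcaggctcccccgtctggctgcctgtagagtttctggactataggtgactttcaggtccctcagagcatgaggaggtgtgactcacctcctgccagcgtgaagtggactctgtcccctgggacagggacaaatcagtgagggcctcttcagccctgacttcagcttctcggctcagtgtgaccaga
Adipoq: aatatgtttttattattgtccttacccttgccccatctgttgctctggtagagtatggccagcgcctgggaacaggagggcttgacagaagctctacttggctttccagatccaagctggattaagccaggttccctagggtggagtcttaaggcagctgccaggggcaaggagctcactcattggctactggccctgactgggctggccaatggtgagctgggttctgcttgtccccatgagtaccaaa

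Library totals ran from 9.61 to 21.99 M estimated counts, the highest in p16-null DMD replicate 4. Levels are given as CPM, counts scaled to library size after scaling all 18 libraries with TMM factors, unless TPM (per transcript length) is named. Dmd, the gene of dystrophin, ranged from 30.9 to 54.1 CPM in p16-null DMD and from 31.4 to 44.3 CPM in DMD libraries, against 114 to 167 CPM in WT libraries of 9 months. Cdkn2a ranged from 10.1 to 15.3 CPM in p16-null DMD and from 10.7 to 19.4 CPM in DMD libraries. Gene-level counts pool the transcripts of Cdkn2a, so they do not check the p16-null label. Markers of muscle fibres were abundant in each group, and the lowest summed level of the 7 fibre markers in any library was 29062 CPM. Changes are log2 fold changes with their SE from edgeR quasi-likelihood tests, and an adjusted p (Benjamini-Hochberg over all genes tested) under 0.05 counts as changed. In bulk RNA, more adipocytes and more RNA per adipocyte cannot be told apart, and neither can fat between the fibres and fat at the edge of a muscle section.

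**Figure D1:**
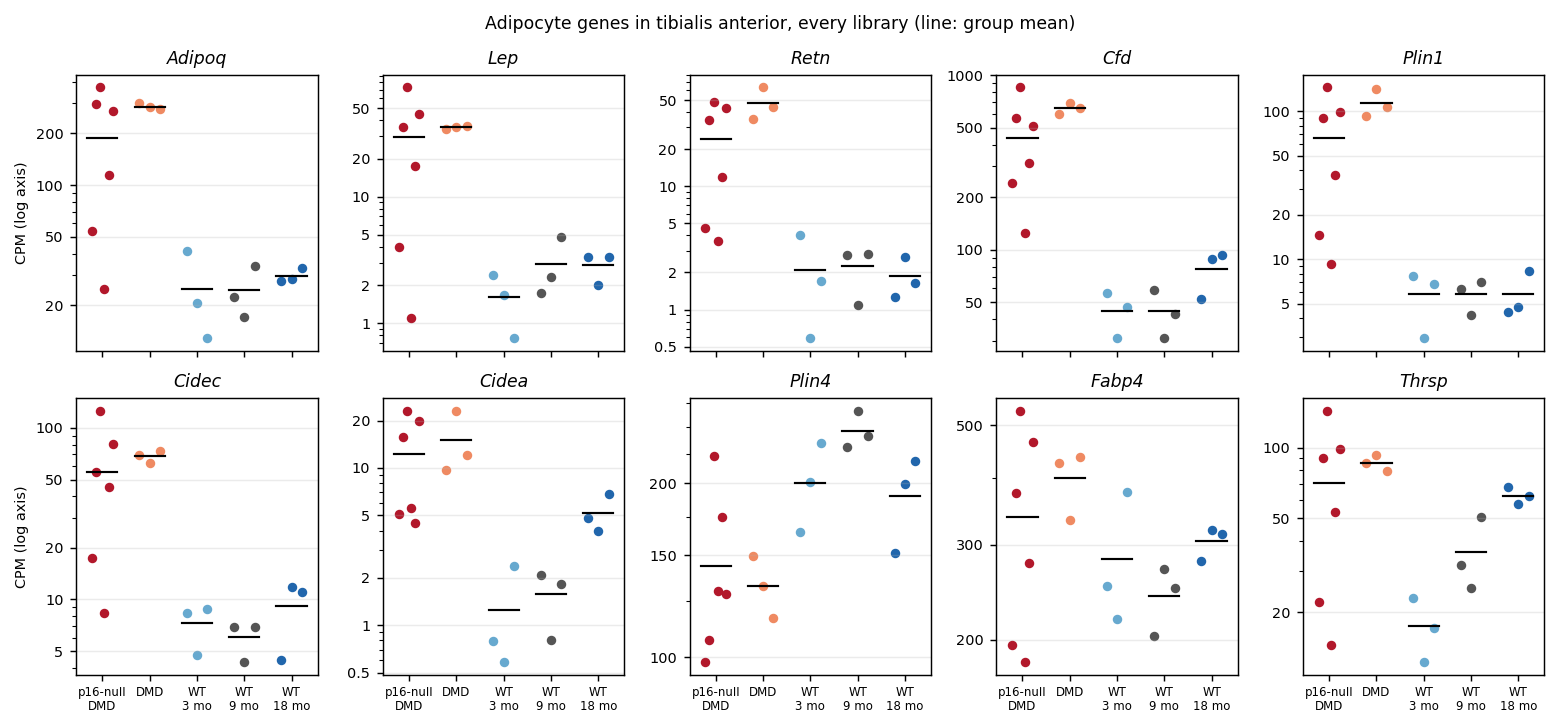
CPM (log axis) of each of the 10 adipocyte genes in every library, by group; each point is 1 library and the line is the group mean. Among the 9-month groups the DMD libraries lie above the WT libraries in 9 panels and below them for Plin4, and the 6 p16-null DMD libraries spread widely, from the WT level of Adipoq (24.99 CPM) to above the DMD level (371 CPM).

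The first comparison asked how the dystrophic muscle differs from WT muscle at 9 months. The 4 genes of secreted proteins and 3 of the 4 droplet genes were 9.18 to 20.5 times higher in DMD muscle, and the droplet gene Plin4 was lower. Of the 10 genes 8 changed, where 48.3% of all 14801 genes tested did (edgeR). They were 7 that rose and 1 that fell, where 26.4% of all genes rose and 21.8% fell, and 2 did not pass. Each DMD library lay above each WT library for 9 of the 10 genes and below each of them for Plin4, where 30.7% of all genes were separated upward and 25.7% downward. The median log2 fold change was 3.51 over the 10 genes and 0.11 over all genes. By library totals, without TMM scaling, the median over all genes was 0.76, so small changes depend on the scaling. By library totals 9 of the 10 genes rose and 0 fell, and among all genes 7691 rose and 1240 fell.

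All 4 genes of secreted proteins rose. Adipoq (ENSRNOG00000001821), which encodes the hormone adiponectin, had 299.5, 284 and 275 CPM in DMD replicates 1 to 3, against 22.5, 17.2 and 34.1 CPM in WT replicates 1 to 3 of 9 months. The DMD libraries stood within 1.09-fold of each other and far above WT, with a log2 fold change of 3.54 ± 0.76 (edgeR adjusted p = 0.0014). Retn (ENSRNOG00000001001), which encodes resistin, a hormone that rodent adipocytes make, had 35.3, 63.7 and 44.0 CPM in DMD and 2.78, 1.08 and 2.85 CPM in WT libraries. This was the largest fitted change of the 10, 4.36 ± 0.91 (adjusted p = 0.0011). Cfd (ENSRNOG00000033564) encodes adipsin, the complement factor D that adipocytes secrete. It had 599.8, 688 and 649 CPM in DMD and 59.1, 31.2 and 42.8 CPM in WT libraries, a change of 3.86 ± 0.55 with the smallest adjusted p of the 10 (5.6e-05, edgeR). Lep (ENSRNOG00000045797) encodes leptin, the hormone that signals the size of fat stores. It had 34.1, 35.4 and 36.2 CPM in DMD and 1.74, 2.30 and 4.78 CPM in WT libraries (3.57 ± 1.06, adjusted p = 0.012). The DMD values lay close together, and the call was lost without WT replicate 1 of 9 months (3.29, adjusted p = 0.0524).

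Among the droplet proteins 3 rose and 1 fell. Plin1 (ENSRNOG00000015086), the perilipin that gates lipolysis in adipocytes, had 93.0, 141 and 106 CPM in DMD and 6.26, 4.19 and 6.99 CPM in WT libraries, a change of 4.27 ± 0.84 (adjusted p = 0.00075). Cidec (ENSRNOG00000009153) encodes a protein that passes lipid between droplets and so enlarges them. It had 69.8, 62.1 and 73.3 CPM in DMD and 6.96, 4.32 and 6.89 CPM in WT libraries (3.48 ± 0.74, adjusted p = 0.0013). Its relative Cidea (ENSRNOG00000018505), known from brown fat and from white fat that is actively filling, was scarcer, at 9.74, 23.2 and 12.04 CPM in DMD and 2.09, 0.810 and 1.84 CPM in WT libraries (3.20 ± 0.69, adjusted p = 0.0014).

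Plin4 (ENSRNOG00000047046), a perilipin of small droplets that muscle also expresses, went the other way. It had 149, 133 and 117 CPM in DMD against 231, 267 and 241 CPM in WT libraries (-0.88 ± 0.26, adjusted p = 0.011). The groups did not overlap on this scale, and the fall passed with TMM and with RLE scaling (-0.92, adjusted p = 0.0077). It did not pass by library totals, at -0.24 (adjusted p = 0.43), or with log2(TPM + 1) in limma, at -0.12 (adjusted p = 0.70). As deposited, Plin4 averaged 45.3 ± 6.40 TPM in DMD and 49.0 ± 3.08 TPM in WT muscle (SD, n = 3 each).

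The fatty acid genes were higher in each DMD library without passing. Fabp4 (ENSRNOG00000010805), a fatty acid carrier of adipocytes that capillary endothelium and macrophages also express, had 425, 334 and 437 CPM in DMD and 203, 271 and 250.1 CPM in WT libraries (0.73 ± 0.35, adjusted p = 0.095). Thrsp (ENSRNOG00000012404), a nuclear protein that promotes lipogenesis under thyroid hormone, had 86.0, 93.4 and 79.2 CPM in DMD and 31.6, 25.4 and 50.6 CPM in WT libraries (1.27 ± 0.62, adjusted p = 0.10). Both passed in a fit of the DMD and WT libraries alone, without the widely spread p16-null DMD libraries (0.71, adjusted p = 0.0059, and 1.25, adjusted p = 0.00088). Both also passed by library totals (1.38, adjusted p = 0.0062, and 1.90, adjusted p = 0.020).

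Per transcript length, the order of the genes differed between dystrophic and WT muscle. In DMD muscle the deposited levels were highest for Fabp4 (1536 ± 394 TPM) and Cfd (1433 ± 121 TPM), which did not differ beyond their spread, then Adipoq (416 ± 47.7 TPM) and Retn (170.1 ± 31.1 TPM), and lowest for Lep (21.0 ± 2.02 TPM). In WT muscle of 9 months Fabp4 was likewise the most abundant (542 ± 77.3 TPM), and Cfd (58.4 ± 19.4 TPM) and Plin4 (49.0 ± 3.08 TPM) came next within their spread (SD, n = 3 each). The TPM ratio to Plin1 was higher in each WT library than in each DMD library for 6 of the 9 other genes. The groups overlapped in this ratio for Retn, Lep and Cfd. Plin1 itself rose by 4.27 on the log2 scale in DMD muscle, and only Retn had a larger fitted change (4.36). A gene that rose less than Plin1 has a lower ratio in DMD muscle for that reason alone. The ratios thus compare rises with that of Plin1 and are no separate result. The ratio was 1.40 to 1.58 in DMD and 1.03 to 1.89 in WT libraries for Retn. For Fabp4 the ratio was 8.67 to 17.1 in DMD and 124 to 244 in WT libraries, for Plin4 0.321 to 0.547 and 11.4 to 21.1, and for Thrsp 0.712 to 0.993 and 5.43 to 7.54. The gap was smaller for Adipoq (2.84 to 4.64 in DMD, 5.10 to 7.19 in WT), Cidec (0.552 to 0.946 in DMD, 1.201 to 1.33 in WT) and Cidea (0.253 to 0.396 in DMD, 0.454 to 0.822 in WT).

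The second comparison set p16-null DMD against WT muscle at 9 months. Again 8 of the 10 genes changed, where 50.2% of all genes did. The 7 that rose and Plin4, which fell, are those of the DMD comparison, where 27.5% of all 14801 genes rose and 22.7% fell, and the median was 3.07 over the 10 genes and 0.11 over all genes. The WT libraries are shared with the comparison above, so the results are set side by side and do not count as independent. Plin1 ranged from 9.33 to 146 CPM with a median of 63.9 in p16-null DMD libraries, and each of the 6 lay above each WT library (3.51 ± 0.78, edgeR adjusted p = 0.0017). Cfd ranged from 124 to 853 CPM with a median of 413 (3.31 ± 0.51, adjusted p = 9.0e-05). Retn ranged from 3.58 to 48.6 CPM with a median of 23.2 (3.41 ± 0.84, adjusted p = 0.0036), and Cidec from 8.29 to 126 CPM with a median of 50.2 (3.19 ± 0.69, adjusted p = 0.0014). Cidea ranged from 4.49 to 22.9 CPM with a median of 10.7 (2.92 ± 0.64, adjusted p = 0.0015). For these 5 genes all 6 libraries lay above WT, where 23.8% of all genes were separated upward.

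Adipoq and Lep were higher on average, but not in every p16-null DMD library. For Adipoq 5 of 6 libraries exceeded each WT library (2.96 ± 0.70, adjusted p = 0.0027), and for Lep 4 of 6 did (3.33 ± 1.0002, adjusted p = 0.012). The Lep call was again lost without WT replicate 1 (3.04, adjusted p = 0.057). Plin4 ranged from 98.1 to 223 CPM with a median of 129, below each WT library, as 21.5% of all genes were (-0.77 ± 0.22, adjusted p = 0.0081), and the call was lost by library totals (-0.16, adjusted p = 0.53). By library totals 9 of the 10 genes rose and 0 fell, among 8071 of all genes that rose and 1251 that fell. Fabp4 (0.50 ± 0.31, adjusted p = 0.19) and Thrsp (0.99 ± 0.55, adjusted p = 0.15) did not pass. Without p16-null DMD replicate 4 Thrsp did pass in both comparisons with WT, at 1.201 (adjusted p = 0.036) for p16-null DMD and at 1.27 (adjusted p = 0.041) for DMD.

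**Figure D2:**
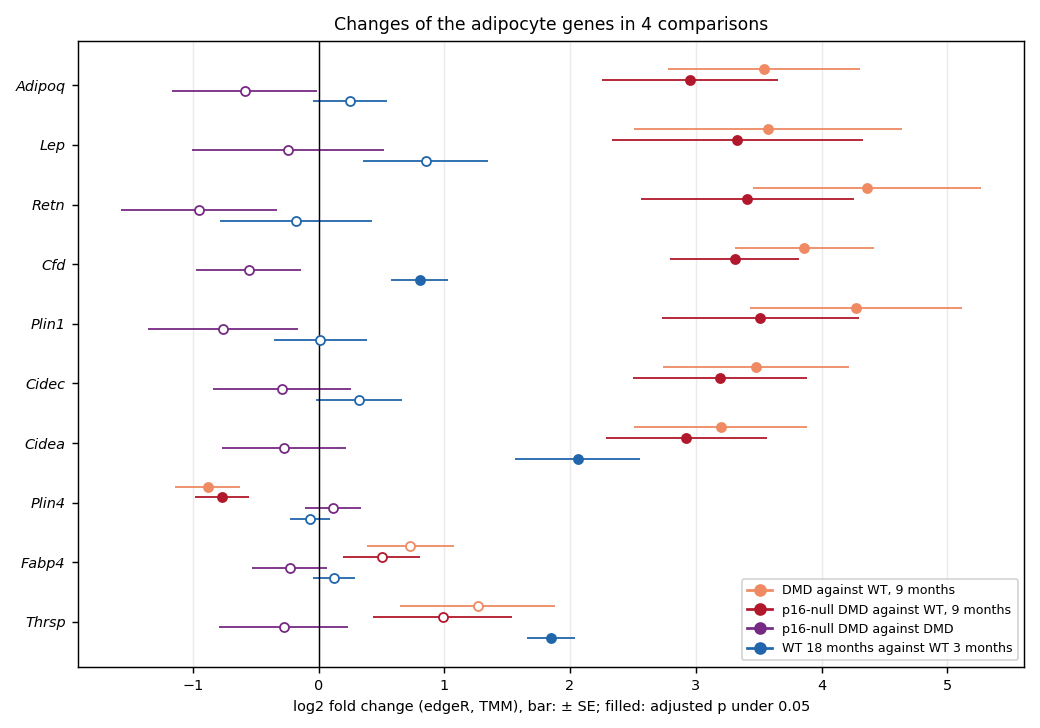
Log2 fold changes of the 10 genes in 4 comparisons (edgeR with TMM scaling; bars are ± 1 SE; filled points have an adjusted p under 0.05). The comparisons of the dystrophic groups with WT show 7 filled points each to the right and Plin4 to the left, p16-null DMD against DMD has no filled point, and WT at 18 against 3 months has 3.

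The third comparison asked what the loss of p16 alters within dystrophic muscle. None of the 10 genes changed by edgeR between p16-null DMD and DMD muscle, none had an unadjusted p under 0.05, and DESeq2 and limma on TPM called none either, where 0.00676% of all 14801 genes passed and 764 had an unadjusted p under 0.05. The ranges of the groups overlapped for all 10 genes, where 1.1% of all genes were separated upward and 0.919% downward. Log2 fold changes ran from -0.95 ± 0.62 for Retn to 0.11 ± 0.22 for Plin4, and 9 of the 10 were below 0, with a median of -0.28. The median over all genes was 0.02. Most of the 10 genes vary together from library to library, so the 9 signs are not separate results. The intervals were wide, so the groups are not shown to be alike. The 95% interval of the fold was 0.28 to 1.57 for Adipoq, 0.24 to 1.43 for Plin1, 0.37 to 1.26 for Cfd, 0.21 to 1.29 for Retn and 0.27 to 2.62 for Lep. It was narrower for Plin4 (0.78 to 1.503) and Fabp4 (0.55 to 1.32).

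The 6 p16-null DMD libraries differed far more among themselves than the 3 DMD libraries did. Adipoq stood at 54.2, 298, 371, 24.99, 115 and 269 CPM in p16-null DMD replicates 1 to 6, a 14.9-fold range, against a 1.09-fold range in DMD. Replicates 2, 3 and 6 were near or above the DMD level, replicates 1 and 5 lay between DMD and WT, and replicate 4 lay within the WT range. Plin1 had 14.6, 90.6, 146, 9.33, 37.2 and 99.8 CPM, again lowest in replicates 4 and 1, though each library lay above WT. Lep had the widest range, 67.3-fold, with 3.97, 35.7, 73.3, 1.09, 17.4 and 44.8 CPM, against a 1.06-fold range in DMD. The ranges were 15.2-fold for Cidec, 13.6-fold for Retn, 9.92-fold for Thrsp, 6.86-fold for Cfd and 5.10-fold for Cidea. Fabp4 (2.93-fold) and Plin4 (2.27-fold) varied least. Replicate 3 was the highest of the 6 for all 10 genes. Replicate 4 was the lowest for 8 genes, with Plin4 lowest in replicate 1 and Cidea in replicate 5, and replicate 1 was among the lowest pair for all 10. Libraries are numbered by their titles, and the numbers carry no order.

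**Figure D3:**
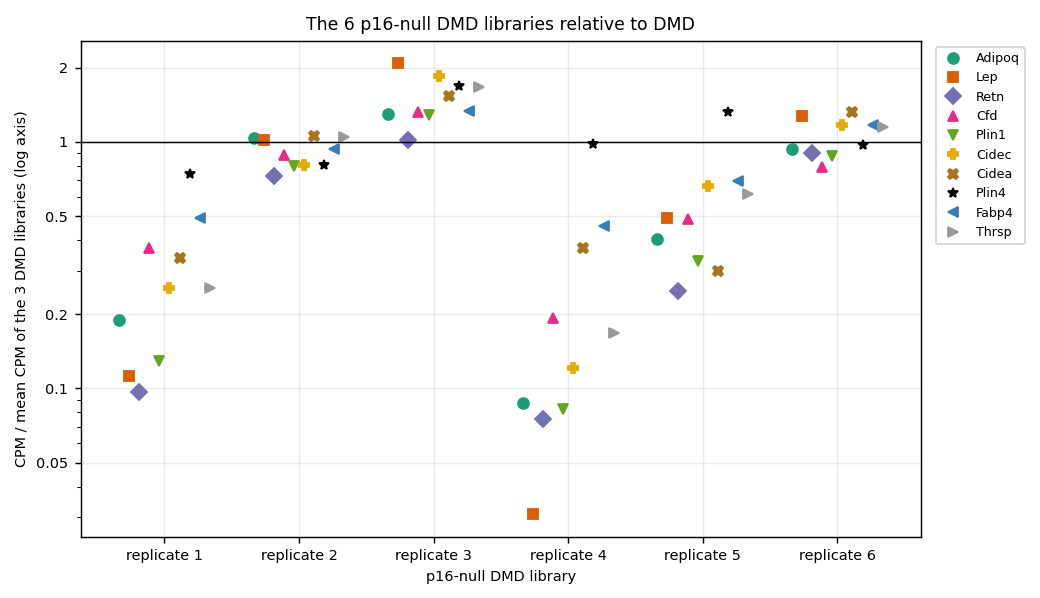
CPM of each gene in the 6 p16-null DMD libraries divided by its mean in the 3 DMD libraries (log axis; the line at 1 is the DMD mean; each symbol is 1 gene). In replicates 1 and 4 most symbols lie far below 1 and Plin4 lies highest, and in replicate 3 all 10 lie above 1.

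Because the genes were measured in the same libraries, their shared variation can be described, with no test. After each group's mean was subtracted, the Pearson correlation over the 18 libraries between a gene and the mean log2 CPM of the other 9 was 0.98 for Plin1 and Thrsp, 0.94 for Cidec and Cfd, 0.92 for Adipoq and 0.91 for Retn. It was 0.88 for Lep, 0.84 for Fabp4, 0.69 for Cidea and 0.34 for Plin4, and the points share each library's depth and scaling. Among 14982 genes the 8 other genes most like the mean of the 10 were Trarg1 (r = 0.95), which aids glucose transport in adipocytes, the cysteine dioxygenase Cdo1 (0.94), the angiotensinogen gene Agt (0.93), the carboxylesterase-like Cesl1 (0.92), the gamma-synuclein gene Sncg (0.91), the retinol saturase Retsat (0.91), the calcium-binding S100b (0.90) and the retinol carrier Rbp4 (0.89). Pparg, the master regulator of adipocytes, had r = 0.79.

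Summed markers of other cell types differed in how they lay across the p16-null DMD libraries. Schwann cell markers were at 133, 237, 262, 112, 128 and 268 CPM in replicates 1 to 6, high in replicates 2, 3 and 6 as the 10 genes were. Fibre markers summed to 50507, 29062, 34787, 43268, 54817 and 30063 CPM, the reverse, with replicates 1, 4 and 5 high. Each set of values separates replicates 2, 3 and 6 from the other 3 libraries. The summed level of 7 macrophage markers was 3929, 1876, 1411, 1898, 2534 and 1318 CPM in replicates 1 to 6, highest in replicate 1 and lowest in replicate 6. Replicates 2, 3 and 6 were again the lowest, though replicate 2 lay only narrowly below replicate 4. The summed level of 12 progenitor markers ran narrowly from 663 in replicate 1 to 891 CPM in replicate 2, while 8 further white adipocyte markers summed to 39.1, 168, 242, 36.2, 94.99 and 193 CPM and followed the split. Replicate 4, lowest for most of the 10 genes, was also the deepest library. Correlations with the mean of the 10 genes were taken over all 18 libraries after each group's mean was subtracted, not over the p16-null DMD libraries alone. This r ran from -0.68 to 0.46 for the 7 fibre markers and from -0.64 to -0.16 for the 7 macrophage markers. The fibre markers thus did not share a sign, and the reverse order above is that of their sum. The 6 Schwann cell markers had r of 0.43 to 0.75 with the mean of the 10 genes, and S100b is known from Schwann cells as well as fat. In DMD replicates 1 to 3 the Schwann cell markers summed to 413, 166 and 147 CPM, and the 10 genes to 1802, 1857 and 1830 CPM. The sum of the 10 genes hardly varied in that group, so its 3 libraries do not show whether the 2 sums move together. The part of these cells and of depth in the result was not tested.

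Other genes of fat storage were read from lists chosen by role, and each list's count in DMD against WT stands beside 26.4% of all genes that rose and 21.8% that fell. Over the 6 lists of transcription factors, synthesis, lipolysis, droplet, receptor and white adipocyte genes together 23 of 52 tested genes rose (44.2%) and 14 fell (26.9%). By library totals 32 of the 52 rose (61.5%) and 7 fell (13.5%), where 7691 of all 14801 genes rose and 1240 fell. Counts by library totals in the lists below stand beside these last numbers. Among 8 tested further markers of white adipocytes 7 rose in DMD muscle against WT and 0 fell (median 2.81). Trarg1 had a change of 2.53 ± 0.58 (adjusted p = 0.0024), Sncg of 2.55 ± 0.66 (adjusted p = 0.0053), the melanocortin receptor cofactor Mrap of 4.62 ± 1.201 (adjusted p = 0.0053) and the FGF21 co-receptor Klb of 3.08 ± 0.84 (adjusted p = 0.0071). In p16-null DMD against WT 6 of the 8 rose and 0 fell, and in p16-null DMD against DMD 0 of 8 passed. The counts of this list against WT were the same with RLE scaling and by library totals.

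Transcription factors moved both ways. Pparg had 21.0 CPM in DMD and 7.57 CPM in WT muscle on average and rose (1.48 ± 0.43, adjusted p = 0.0097). Klf15 (-1.54 ± 0.36), Rxra (-0.98 ± 0.26) and the lipogenic factor Srebf1 (-0.93 ± 0.35) fell, and of the 7 tested 1 rose and 3 fell. By library totals 3 rose and 1 fell, and Rxra and Srebf1 no longer passed. Cebpa was not analysed here.

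In fatty acid and triglyceride synthesis 6 of 13 genes rose and 4 fell in DMD against WT. The fatty acid synthase Fasn stood at 1.4997 ± 0.18 (adjusted p = 1.2e-05). The desaturase Scd stood at 2.38 ± 0.61 and was named after its values were seen, in addition to the genes with the smallest p. Among those that fell were the glycerol phosphate dehydrogenase Gpd1 at -2.29 ± 0.29, the phosphatidate phosphatase Lpin1 at -2.11 ± 0.26 and the malic enzyme Me1 at -1.83 ± 0.22. By library totals 8 rose and 3 fell. Of 9 genes of lipolysis and uptake 3 rose and 2 fell, shares near those of all genes. The hormone-sensitive lipase Lipe (1.06 ± 0.34) and the lipase coactivator Abhd5 (0.68 ± 0.23) rose, and the lipase inhibitor G0s2 (-1.54 ± 0.59) and the monoglyceride lipase Mgll (-0.50 ± 0.18) fell. By library totals 6 of these 9 rose and none fell, and Mgll turned to 0.15.

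Of 7 other droplet genes 2 rose and 3 fell. Plin2, the perilipin of non-adipose cells, stood at 1.42 ± 0.18 (adjusted p = 2.1e-05), while the droplet genes Fitm1 (-1.71 ± 0.24), Fitm2 (-1.05 ± 0.23) and Plin5 (-1.70 ± 0.41) fell. By library totals 4 rose and 2 fell, without Fitm2. The receptors of adiponectin, Adipor1 (-0.96 ± 0.14) and Adipor2 (-1.48 ± 0.17), fell in DMD muscle, although Adipor1 did not pass by library totals (-0.32, adjusted p = 0.072). The leptin receptor Lepr averaged 5.52 CPM in DMD and 5.56 CPM in WT muscle and did not pass (0.00 ± 0.47). Of the list of receptors and further secreted proteins 4 of 8 rose and 2 fell. The lipase inhibitor Angptl4 stood at 4.38 ± 0.64 (adjusted p = 6.8e-05) and the chemerin gene Rarres2 at 1.39 ± 0.23.

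Among genes of brown and beige fat 1 of 4 tested rose and 1 fell. Ucp1, the uncoupling protein that defines brown fat, had 0 counts over the 6 p16-null DMD libraries, 1 count over the 3 DMD libraries and 5 counts over the 3 WT libraries of 9 months. The deiodinase Dio2 rose (2.86 ± 0.67, adjusted p = 0.0027) and the mitochondrial coactivator Ppargc1a fell (-1.22 ± 0.29), a call lost by library totals (-0.57, adjusted p = 0.12). Of the 12 progenitor genes 6 rose and 1 fell. Pdgfra, the receptor that marks these cells, stood at 1.89 ± 0.26, Dpt at 1.87 ± 0.21 and Pdgfrb at 1.25 ± 0.16, and Cd55 fell by 1.29 ± 0.21 on the log2 scale. Beside them all 7 macrophage markers rose, 6 of 7 fibre markers fell, and endothelial markers, which matter for Fabp4, fell in 2 of 5 cases and in none by library totals. The summed endothelial level was 355 to 482 CPM in DMD and 453 to 551 CPM in WT libraries. The part of these cells in the members' changes was not tested.

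**Figure D4:**
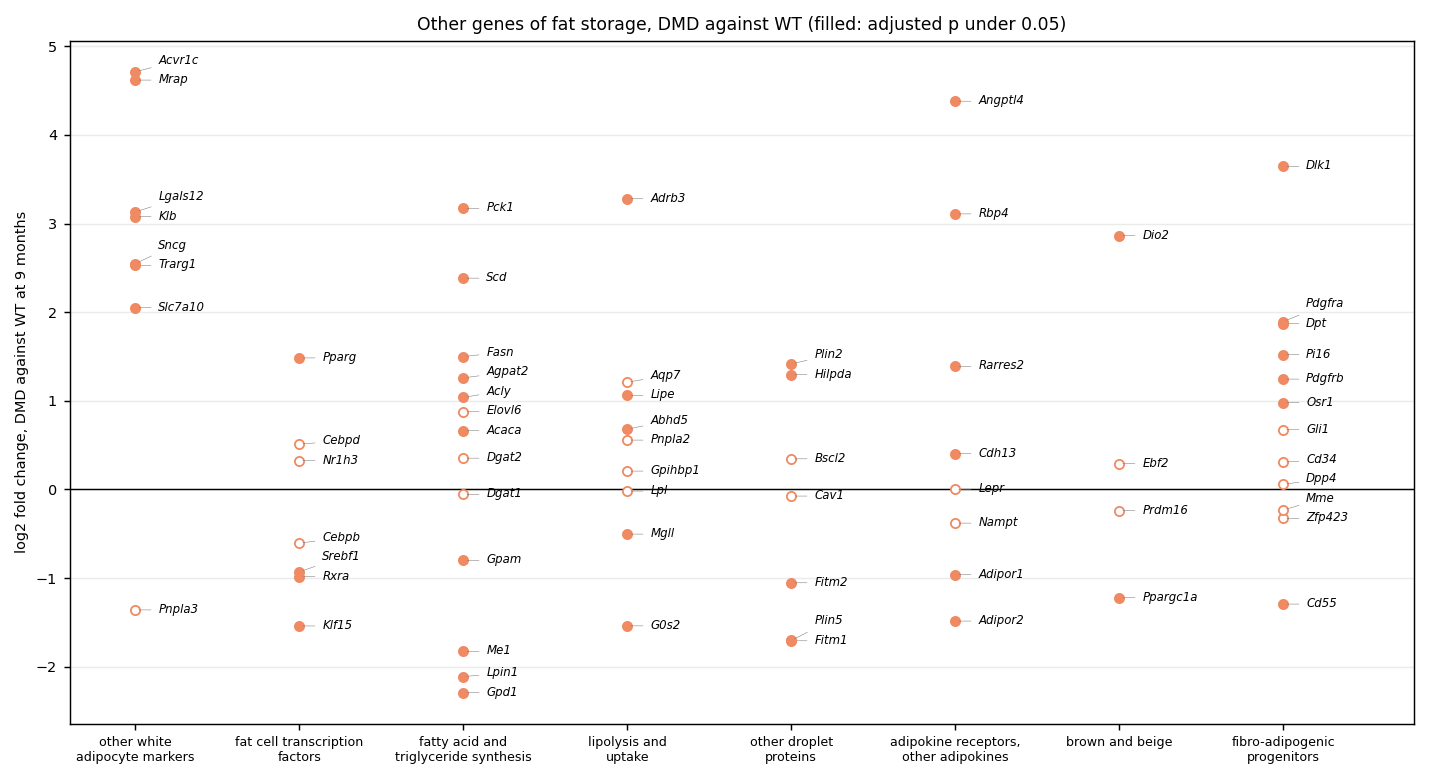
Log2 fold change in DMD against WT muscle at 9 months (TMM scaling) of the tested genes of 8 further lists; each point is 1 gene, filled where the adjusted p is under 0.05. White adipocyte markers lie at 2.05 or above except Pnpla3, while the lists of synthesis, lipolysis and droplet genes spread to both sides of 0.

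The last comparison asked how WT muscle of 18 months differs from that of 3 months. Of the 10 genes 3 changed, where 19.4% of all 13487 genes tested did. All 3 rose, where 9.31% of all genes rose and 10.1% fell, and the median was 0.29 over the 10 genes. The genes that rose were Thrsp, Cidea and Cfd. Thrsp had 67.7, 57.4 and 62.5 CPM at 18 months, against 22.9, 12.3 and 17.0 CPM at 3 months. All libraries of 18 months lay above those of 3 months, with a change of 1.85 ± 0.19 (edgeR adjusted p = 1.2e-05). Cidea had 4.80, 3.99 and 6.79 CPM at 18 months against 0.799, 0.584 and 2.36 CPM at 3 months, again without overlap (2.06 ± 0.50, adjusted p = 0.0093). The upward separation seen for both held for 17.7% of all genes. Cfd had 52.2, 88.3 and 93.2 CPM at 18 months against 56.4, 31.05 and 47.0 CPM at 3 months, and the groups overlapped (0.80 ± 0.22, adjusted p = 0.021).

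The Cfd call was lost without 18-month replicate 2 (adjusted p = 0.085) or 3 (0.097) or 3-month replicate 2 (0.088), and the Cidea call without 18-month replicate 3 (1.83, adjusted p = 0.062). In a fit of all 18 libraries Cidea (adjusted p = 0.054) and Cfd (adjusted p = 0.30) did not pass either. The genes that mark fat cells most strictly gave no call. Adipoq had 27.8, 28.4 and 32.9 CPM at 18 months against 41.5, 20.6 and 12.9 CPM at 3 months (0.25 ± 0.30, adjusted p = 0.61). The 3-month libraries spread on both sides of the 18-month ones, and without 3-month replicate 1 Adipoq passed (0.84, adjusted p = 0.012). Plin1 had 4.44, 4.79 and 8.33 CPM at 18 months against 7.72, 2.92 and 6.81 CPM at 3 months (0.02 ± 0.37, adjusted p = 0.98), with a 95% interval of the fold from 0.58 to 1.75. Lep (0.85 ± 0.50, adjusted p = 0.27), Cidec (0.32 ± 0.34), Fabp4 (0.12 ± 0.17), Plin4 (-0.07 ± 0.16) and Retn (-0.18 ± 0.61) did not pass, though Fabp4 did with log2(TPM + 1) in limma (0.48, adjusted p = 0.032).

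Over the 3 ages of WT muscle Thrsp averaged 17.4 ± 5.33 CPM at 3 months, 35.9 ± 13.1 CPM at 9 months and 62.5 ± 5.17 CPM at 18 months. Cidea averaged 1.25 ± 0.97, 1.58 ± 0.68 and 5.19 ± 1.44 CPM at these ages. Plin1 averaged 5.82 ± 2.55, 5.81 ± 1.45 and 5.85 ± 2.15 CPM at 3, 9 and 18 months (SD, n = 3 each). The TPM ratio of Thrsp to Plin1 was 8.06 to 16.4 at 18 months and 2.68 to 4.52 at 3 months, and that of Cidea to Plin1 1.99 to 2.61 and 0.253 to 0.864. The 9-month group was not part of the age comparison and was not tested against the others.

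Over the same 6 lists of fat storage genes 7 of 46 tested genes rose (15.2%) and 11 fell (23.9%) at 18 against 3 months, where 9.31% of all genes rose and 10.1% fell. By library totals 15 of the 46 rose and 8 fell, where 2609 of all 13487 genes rose and 652 fell. Plin2 rose (1.68 ± 0.14, adjusted p = 2.4e-06), as did Angptl4 (3.00 ± 0.45, adjusted p = 0.00033), while Gpd1 (-1.40 ± 0.14), Me1 (-0.86 ± 0.12), Lpin1 (-0.99 ± 0.14), Fasn (-0.89 ± 0.27), Fitm1 (-0.79 ± 0.15) and G0s2 (-1.63 ± 0.23) fell. The Fasn call was lost by library totals (-0.67, adjusted p = 0.11), which moved the median of all genes to 0.24. Of the 13 synthesis genes 0 rose and 4 fell, and by library totals 3 rose and 3 fell. Of 3 tested white adipocyte markers 1 rose, Sncg (0.91 ± 0.21, adjusted p = 0.0070), and 1 fell, Pnpla3 (-2.91 ± 0.70, adjusted p = 0.0089). Pnpla3 was named after its values were seen, in addition to the genes with the smallest p in DMD against WT. Pparg, Pdgfra, Adipor1, Adipor2 and Lepr did not pass. The 7 macrophage markers rose, with a summed level of 539 to 782 CPM at 18 months and 283 to 446 CPM at 3 months, and 3 of 7 fibre markers fell. Their part in the changes of Thrsp, Cidea and Cfd was not tested.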

How the data were processed

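The authors deposited expected counts (estimated counts per gene, not scaled) and TPM for 18 libraries, and per the submitters' processing notes used Trimmomatic, FastQC, STAR 2.7.10b and RSEM 1.3.3 with build mRatBN7.2. What each tool did, which annotation was used and how strand was set: not given in the sources used here. Frozen sections of the muscle gave the RNA, per the labels' protocols. Of all deposited counts 4.50% were not whole, and they were rounded. Totals are given in the report, and precision is limited by the 3 or 6 libraries of a group.

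Genes were filtered with filterByExpr, scaled by TMM and tested with edgeR 4.0.16 quasi-likelihood tests (R 4.3.3), with 1 fit over the libraries of 9 months (14801 genes) and another over WT of 3 and 18 months (13487 genes). SE was taken as |log2 fold change| over the root of F. All 10 members passed the filter in both fits. Members and lists were chosen with earlier results of these data known. All members are named, and up to 4 genes per list by the smallest p in DMD against WT, beside Pparg, Adipor1, Adipor2, Lepr, Pdgfra and Ucp1. The 8 genes most like the members were taken by r. Genes that were not analysed here are Cebpa, Mlxipl, Cd36, Fabp5, Plin3, Apln, Adig, Aoc3, Cox8b, Cldn5, Krt14 and Lor.

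Alternatives were DESeq2 1.42.0, RLE scaling, library totals, limma 3.58.1 on log2(TPM + 1) or log2(TPM + 0.1) for genes of at least 0.5 TPM in 3 libraries, no filter, at least 5 CPM in 3 libraries, all 18 libraries in 1 fit, the compared groups alone, a replicate block and each library left out. The tests were checked on simulated data. Replicates differed by more than counting error. Figures used matplotlib 3.10.9.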

Additional observations from a re-analysis of the deposited data

How the results depend on the processing

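Of the 10 genes, 8 were called in DMD against WT, and 8 to 10 under the other settings and 7 to 9 when 1 library was left out. In p16-null DMD against WT 8 were called, and 8 to 9 and 7 to 9. In p16-null DMD against DMD the count was 0 under each setting run. At 18 against 3 months it was 3, with 1 to 4 under other settings and 1 to 4 with 1 library left out. It was 1 in a fit of all 18 libraries and 1 without 18-month replicate 3, and the cause was not tested. Calls over all genes moved with the setting too. In DMD against WT 3914 of 14801 rose and 3228 fell in the main fit. With log2(TPM + 0.1) in limma 8328 of 15682 rose and 1032 fell. In p16-null DMD against WT the counts were 4073 and 3359, then 9024 and 976. At 18 against 3 months 1256 of 13487 rose and 1366 fell, and in the fit of all 18 libraries 874 of 14982 rose and 868 fell.

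Directions turned for changes that were not called. At 18 against 3 months Plin4 turned by library totals (0.17), with log2(TPM + 1) (0.286) and with log2(TPM + 0.1) (0.292). Retn turned by library totals (0.0406), with these TPM settings (0.16 and 0.253) and with the replicate block (0.0281). With 1 library left out, the log2 fold change at 18 against 3 months ran from -0.617 to 0.704 for Retn, -0.323 to 0.281 for Plin1, -0.186 to 0.0756 for Plin4, -0.0700 to 0.837 for Adipoq and -0.0336 to 0.37 for Fabp4. In p16-null DMD against DMD it ran from -0.555 to 0.184 for Cidea, -0.765 to 0.00826 for Lep and -0.0625 to 0.22 for Plin4.

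Same-numbered libraries did not deviate together (r = -0.20 to 0.09), and 0 to 4 of 6 libraries correlated best with their own number. The groups are small, so this check cannot exclude that the numbers pair the libraries. With the replicate number as a block 9, 8, 0 and 3 of the 10 genes were called in DMD against WT, p16-null DMD against WT, p16-null DMD against DMD and 18 against 3 months. Of all 14801 genes 3568 rose and 2908 fell with this block in DMD against WT. In p16-null DMD against WT 3328 rose and 2772 fell, and in p16-null DMD against DMD 0 rose and 0 fell. At 18 against 3 months 1370 of 13487 rose and 1536 fell. Depth limits the scarce genes most, namely Cidea, Lep and Retn in WT muscle.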
